A study of Mus musculus with 12 samples.

Results

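The cytosolic ribosomal protein genes encode the protein part of the ribosomes that translate nuclear mRNA. They were chosen here by symbol alone, as Rpl or Rps with a number and an optional closing letter or digit, together with Rplp0, Rplp1, Rplp2 and Rpsa. Pseudogene symbols and the S6 kinase genes were left out. The rule itself uses no measured value, although it was proposed with earlier results of these data known. The rule found 83 of the 23352 gene symbols, 32 of them for the small (40S) subunit and 51 for the large (60S) subunit. Each of the 83 had 1 entry in the deposited gene tables.

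Poly(A) RNA was sequenced from regulatory T cells (Tregs) that came from the spleens and lymph nodes of female mice of the C57BL/6 strain. All were Foxp3YFP-Cre/Foxp3WT, heterozygous for a Cre recombinase driven by the promoter of Foxp3, the X-linked gene that defines Tregs, and the labels do not say whether the Tregs were sorted for YFP. In the Ezh2-KO groups both alleles of Ezh2, the methyltransferase gene of Polycomb repressive complex 2, were floxed (Ezh2fl/fl), and in the Ezh2-HET groups 1 was (Ezh2fl/+). Each genotype was sorted by surface CD62L, the lymph node homing receptor of resting T cells, into a CD62Llo and a CD62Lhi fraction. KO CD62Llo, KO CD62Lhi and HET CD62Llo had 3 libraries each and HET CD62Lhi had 2, because its replicate 3 is labelled as removed for low read counts. The labels give no mouse age, and do not say that libraries of 1 group came from separate animals, so the p-values measure the spread between libraries, which may be technical. The design asks how the fractions differ within each genotype and how the genotypes differ within each fraction.

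Each ribosome holds a single copy of nearly every ribosomal protein, so cells make these proteins in matched amounts, and cells that grow and divide make more. Their mRNAs are among the most abundant and most stable of a lymphocyte. Many start with a C followed by an unbroken run of C and T letters, the 5′ terminal oligopyrimidine (TOP) tract, through which mTORC1 and the RNA-binding protein Larp1 set how far they are translated. Resting lymphocytes store many of these mRNAs untranslated, so an mRNA level is not a level of ribosomes.

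The tract was looked for in the RefSeq GRCm38.p6 promoter sequences, which were on hand for 63 of the 83 genes. It was defined as a C followed by at least 5 letters that are each C or T, beginning within 5 bases of the annotated start. It was present in 25 of the 63 (39.7%), against 2734 of the 26962 other symbols with a sequence (10.1%). Read on the other strand, the same pattern stood in 3 of the 63 (4.76%) and in 12.8% of the other symbols. The windows printed here run from 10 bases before the start to 20 bases from it, 5′ to 3′ on the gene's strand, with the tract in capitals. The first 6 show the tract in genes with values given later in the text, and the last 4, with no tract, include Rps19, the gene with the largest called fall, and paralogs whose values were not lower.
Rps6 (chr4:86857348-86857377, minus strand): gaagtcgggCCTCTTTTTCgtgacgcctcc
Rps24 (chr14:24490668-24490697, plus strand): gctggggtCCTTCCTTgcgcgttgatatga
Rplp2 (chr7:141447641-141447670, plus strand): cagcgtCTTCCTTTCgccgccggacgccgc
Rpl12 (chr2:32961702-32961731, plus strand): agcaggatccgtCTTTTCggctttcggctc
Rpl13a (chr7:45128726-45128755, minus strand): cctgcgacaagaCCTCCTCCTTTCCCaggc
Rpl38 (chr11:114668570-114668599, plus strand): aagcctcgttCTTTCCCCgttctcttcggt
Rps19 (chr7:24884666-24884695, plus strand): cggtgagtgagggctctgggtcgcggctgt
Rpl5 (chr5:107900518-107900547, plus strand): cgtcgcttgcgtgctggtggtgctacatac
Rps27l (chr9:66946076-66946105, plus strand): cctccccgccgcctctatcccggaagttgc
Rpl7l1 (chr17:46782637-46782666, minus strand): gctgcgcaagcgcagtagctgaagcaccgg
A window without the tract says only that these letters are not at the annotated start. A window with it shows letters near the annotated start, and the first base of the mRNA was not measured. Rps19 and Rps27l have more than 1 annotated start. The genes not matched to a sequence included Rpl17, Rpl21, Rpl23a, Rpl29, Rpl3, Rpl30, Rpl32, Rpl36, Rpl7, Rpl8, Rplp1, Rps14, Rps20, Rps27a and Rps29.

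The values are FPKM, fragments per kilobase of transcript scaled to the mapped total, as the authors deposited them, and the depth of each library is not given with them. The 83 genes lie on 19 chromosomes, with 14 on chromosome 7 and 4 on X. Ezh2 had FPKM of 12.5 to 16.8 in KO CD62Llo and 17.8 to 20.5 in HET CD62Llo, and 9.15 to 11.5 in KO CD62Lhi and 12.5 to 12.7 in HET CD62Lhi, and did not differ between genotypes at the threshold of the limma test described later in either fraction. A gene-level FPKM also counts transcripts left after a partial deletion, so it is a weak check of the genotype. Foxp3 stood between 75.9 and 96.8 in all 11 libraries. KO CD62Llo replicate 3 correlated more closely with the KO CD62Lhi libraries (Pearson r 0.955 to 0.963 over log2(FPKM + 1)) than with its own group (0.949 and 0.950).

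Ribosomal protein genes made up 25.3% to 32.5% of all summed FPKM, and a smaller part in CD62Llo than in CD62Lhi Tregs of both genotypes. Their share was 27.1%, 27.7% and 27.6% in the KO CD62Llo libraries, against 31.0%, 31.3% and 30.1% in KO CD62Lhi. In HET Tregs it was 27.6%, 25.4% and 25.3% in CD62Llo, against 32.5% and 31.4% in CD62Lhi. The fractions did not overlap in either genotype, while the KO and HET values overlapped within CD62Llo but not within CD62Lhi, where HET was higher. The summed FPKM of all other genes lay between 425728 and 445454 in the 11 libraries. It overlapped between the KO fractions, at 428998 to 439873 in CD62Llo and 429710 to 445454 in CD62Lhi. In HET it was lower in CD62Llo, at 425728 to 432314 against 437816 and 444762 in CD62Lhi. This sum also counts entries that overlap some ribosomal protein genes, described later. The median FPKM was taken over the ribosomal protein genes above 0 in each library, 81 or 82 of the 83. It was 2024 to 2050 in KO CD62Llo and 2489 to 2538 in KO CD62Lhi. In HET it was 1780 to 2044 in CD62Llo and 2587 to 2732 in CD62Lhi.

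**Figure D1:**
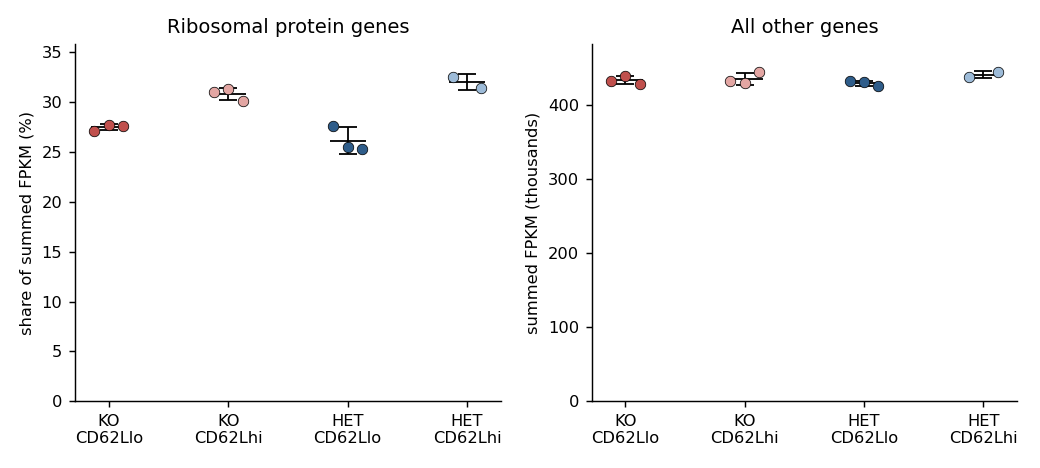
Left, share (%) of the summed FPKM that the 83 ribosomal protein genes hold in each library. Right, summed FPKM, in units of 1000, of all other genes. Points are libraries, bars are the mean ± SD (n = 3, or 2 for HET CD62Lhi). All CD62Llo shares (25.3% to 27.7%) lie under all CD62Lhi shares (30.1% to 32.5%). The sums of the other genes overlap between the KO fractions, and in HET those of CD62Llo lie under those of CD62Lhi.

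These genes also filled the top of every library. Of the 50 entries with the highest FPKM 33 to 37 were ribosomal protein genes, and of the top 100 there were 63 to 69. Rplp1, which encodes a stalk protein that recruits elongation factors, was the highest of them in all 11 libraries. Over the 11 libraries 67 of the 83 had a mean FPKM above 1000, and 8 had one under 100. FPKM is scaled by gene length, but sequences shared with pseudogenes make the level of a single ribosomal protein gene uncertain.

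Groups were compared with limma on log2(FPKM + 1) over the 11431 genes that reached 1 FPKM in 2 or more libraries, with Benjamini-Hochberg adjustment over all of them and a threshold of 0.05. Of the 83 ribosomal protein genes 81 passed this filter. Rpl10l, a testis paralog of Rpl10, was listed at 0 in all 11 libraries, and Rpl3l, a muscle paralog of Rpl3, was above 0 in 2 of them at 0.0299 and 0.0172. A negative log2 change means lower in the group named first.

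Between the KO fractions 45 of the 81 tested genes fell in CD62Llo and 0 rose, where 4.26% of all tested genes fell and 11.9% rose (limma, Benjamini-Hochberg). Their median log2 change was -0.24 (a ratio of 0.844), against 0.05 for all tested genes, and 61 were lower at an unadjusted p under 0.05 (8.49% of all tested genes). Between the HET fractions 70 of the 81 fell and 0 rose, where 8.88% of all tested genes fell and 18.8% rose, and 73 were lower at an unadjusted p under 0.05 (12.7%). The median log2 change was -0.41 (a ratio of 0.753), against 0.07 for all tested genes. These counts hold for the FPKM as deposited and were 3 in KO and 7 in HET after quantile normalization. Groups did not overlap, with CD62Llo lower, for 67 of the 81 in KO (10.5% of all tested genes) and for 75 in HET (17.9%). With CD62Llo higher this was so for 0 of them in KO (24.3% of all tested genes) and for 2, Rpl39l and Rps27l, in HET (36.1%). The KO count fell on leaving out most of the KO libraries, which leaves a smaller group each time. Calls over all tested genes in KO, in either direction, ranged from 1187 to 1974 with 1 library left out. The count of ribosomal protein genes was 24, 15 and 23 without KO CD62Lhi replicates 1, 2 and 3. It was 18 and 26 without KO CD62Llo replicates 1 and 3, and the medians stayed between -0.27 and -0.22. In bulk RNA, fewer cells of a type with high ribosomal protein mRNA and less of that mRNA per cell cannot be told apart.

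Genes listed as markers of other cells moved between the fractions too, and the part of such cells in these differences was not tested. The summed FPKM of 4 B cell genes was 23.6 to 55.7 in KO CD62Llo and 68.3 to 116 in KO CD62Lhi, and 17.4 to 28.9 in HET CD62Llo and 69.9 to 85.0 in HET CD62Lhi. The 2 CD8 T cell genes were lower in every CD62Llo library than in any CD62Lhi library, with Cd8b1 at 9.79 to 14.3 in KO CD62Llo against 22.8 to 28.1 in KO CD62Lhi, and at 8.66 to 11.9 in HET CD62Llo against 29.9 to 33.0 in HET CD62Lhi. Of the NK cell genes Klrb1c went the other way, at 1.03 to 1.65 in KO CD62Llo against 0.266 to 0.317 in KO CD62Lhi and 1.53 to 3.97 in HET CD62Llo against 0.315 to 0.395 in HET CD62Lhi, and Ncr1 stayed under 0.5. Among 4 myeloid genes Lyz2 alone was called, higher in CD62Llo, at 25.6 to 219 in KO CD62Llo against 7.60 to 10.9 in KO CD62Lhi and 40.1 to 75.2 in HET CD62Llo against 8.87 to 12.9 in HET CD62Lhi. Csf1r and Emr1 overlapped between the fractions in both genotypes, and Itgam stayed under 0.5. Of 4 stromal and endothelial genes Pecam1 had nearly all the signal, at 50.6 to 55.7 in KO CD62Llo against 68.2 to 78.6 in KO CD62Lhi and 36.8 to 40.3 in HET CD62Llo against 67.1 to 72.0 in HET CD62Lhi. Cdh5 and Col3a1 were near 0, and Col1a1 was higher in CD62Llo but at most 0.320. The Pecam1 values are therefore not read as an amount of stromal or endothelial cells. The 5 red cell and platelet genes summed to 4.11 to 155 in KO CD62Llo and 8.34 to 295 in KO CD62Lhi, and to 17.0 to 183 in HET CD62Llo and 108 to 127 in HET CD62Lhi, nearly all from Hba-a1 and Hbb-b1, and Pf4 was at 0 in all groups but HET CD62Llo. The 2 plasma cell genes summed to at most 13.6. Of the Treg and T cell genes, Foxp3 and Il2ra overlapped between the fractions, and Ctla4, Cd4 and Cd3e were higher in every CD62Llo library than in any CD62Lhi library.

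Both subunits took part. Of the 32 tested 40S genes 19 fell in KO CD62Llo (median log2 change -0.25) and 28 in HET CD62Llo (-0.45). Of the 49 tested 60S genes 26 fell in KO CD62Llo (-0.21) and 42 in HET CD62Llo (-0.39). The summed FPKM of 60S over 40S genes was taken over the 74 tested genes with a mean above 100 FPKM, Rps27 left out. This ratio was 1.14 to 1.16 in KO CD62Llo and 1.13 in each KO CD62Lhi library. In HET it was 1.15 to 1.18 in CD62Llo and 1.13 in both CD62Lhi libraries. The ratio was thus higher in every CD62Llo library than in any CD62Lhi library, and was not tested.

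Rps19, whose human counterpart is the gene most often mutated in Diamond-Blackfan anemia, had the largest called fall in HET. Its FPKM were 2109.6, 2050 and 2118 in KO CD62Llo, against 2857, 2610.1 and 2652 in KO CD62Lhi. In HET they were 2044, 1585 and 1711 in CD62Llo, against 3015 and 2867 in CD62Lhi. Every CD62Llo value lay under every CD62Lhi value. The log2 change was -0.37 in KO (SE 0.09, adjusted p = 0.0190) and -0.73 in HET (SE 0.10, adjusted p = 5.8e-04, limma, Benjamini-Hochberg). Leaving out KO CD62Lhi replicate 1 (adjusted p = 0.0734) or KO CD62Llo replicate 2 (0.0668) removed the KO call, with a range of 0.00268 to 0.331 over the alternatives, and the HET call held without any 1 library.

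Further 40S genes fell by similar amounts. Rps24, whose window holds the tract as defined here, had FPKM of 2377, 2486 and 2495 in KO CD62Llo against 2992, 3198 and 3087 in KO CD62Lhi. In HET it had 2284, 2373 and 2247 in CD62Llo against 3186 and 3103 in CD62Lhi. The groups did not overlap in either genotype, and the log2 changes were -0.33 in KO (SE 0.05, adjusted p = 0.00241) and -0.45 in HET (SE 0.06, adjusted p = 4.3e-04, limma, Benjamini-Hochberg). Rps20, a protein of the 40S head, changed by -0.34 (adjusted p = 0.00684) in KO and -0.58 (3.8e-04) in HET. Rps3, which lines the mRNA entry channel, changed by -0.26 in KO (0.0211) and -0.48 in HET (0.00102). Its KO call was lost on leaving out any of the 3 KO CD62Lhi libraries or KO CD62Llo replicate 1 or 2, at adjusted p up to 0.0713.

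Rps6, the substrate of the S6 kinases whose phosphorylation is the usual readout of mTORC1, had FPKM of 1587, 1714 and 1666 in KO CD62Llo against 1898, 1906 and 1919 in KO CD62Lhi. In HET it had 1672, 1439 and 1428 in CD62Llo against 2090.4 and 2005 in CD62Lhi. The groups were apart in both genotypes, but only the HET difference passed the test, with log2 changes of -0.20 in KO (SE 0.07, adjusted p = 0.0710) and -0.44 in HET (SE 0.08, adjusted p = 0.00223, limma, Benjamini-Hochberg). Rps14, a protein of the 40S platform, Rps28 and Rps29 behaved alike in that each passed in HET, with log2 changes of -0.54, -0.58 and -0.51, and not in KO, with -0.24, -0.20 and -0.25. Rpsa, which doubles as a laminin receptor, was near the threshold in HET (-0.28, adjusted p = 0.0436) and lost its call in 8 of the 11 cases in which 1 library was left out, and its KO value was -0.13. Passing in 1 genotype and not in the other does not show a difference between genotypes, which was tested on its own.

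Of the stalk proteins of the 60S subunit, Rplp0 fell in both genotypes. It had FPKM of 2009, 2046 and 2118 in KO CD62Llo against 2575, 2507 and 2567 in KO CD62Lhi, and of 2077, 1817 and 1837 in HET CD62Llo against 2732 and 2628 in HET CD62Lhi. No CD62Llo library reached the lowest CD62Lhi value, and the log2 changes were -0.31 in KO (SE 0.06, adjusted p = 0.00809) and -0.49 in HET (SE 0.07, adjusted p = 7.0e-04, limma, Benjamini-Hochberg), kept without any 1 library. Rplp1 had FPKM of 5645, 5724 and 5139 in KO CD62Llo against 6501, 6339 and 5858 in KO CD62Lhi, and of 5781, 4772 and 4537 in HET CD62Llo against 6977 and 6795 in HET CD62Lhi. Its fractions did not overlap either, with log2 changes of -0.18 in KO (adjusted p = 0.243) and -0.46 in HET (adjusted p = 0.00997). The HET call of Rplp1 was lost without HET CD62Lhi replicate 1 (adjusted p = 0.0690) or replicate 2 (0.0514), with a range of 9.97e-04 to 0.447 over the alternatives. Rplp2 changed by -0.27 in KO (adjusted p = 0.0415, lost in 9 of the 11 cases with 1 library left out, at up to 0.127) and -0.47 in HET (adjusted p = 0.00325).

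Rpl5 and Rpl11 encode the proteins that, with 5S rRNA, bind Mdm2 and stabilize p53 when ribosome assembly is disturbed. Rpl5 had FPKM of 905, 957 and 925 in KO CD62Llo against 1134, 1231 and 1182 in KO CD62Lhi, and of 885, 915 and 837 in HET CD62Llo against 1212 and 1156 in HET CD62Lhi. The fractions lay well apart, with log2 changes of -0.35 in KO (SE 0.05, adjusted p = 0.00274) and -0.43 in HET (SE 0.06, adjusted p = 7.8e-04, limma, Benjamini-Hochberg), both kept without any 1 library. Rpl11 changed by -0.14 in KO (adjusted p = 0.289) and -0.41 in HET (adjusted p = 0.00954), and the HET call was lost without HET CD62Lhi replicate 1 (0.0653) or replicate 2 (0.0520), with a range of 3.0e-04 to 0.633 over the alternatives. The interaction of genotype and fraction passed for neither gene.

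**Figure D2:**
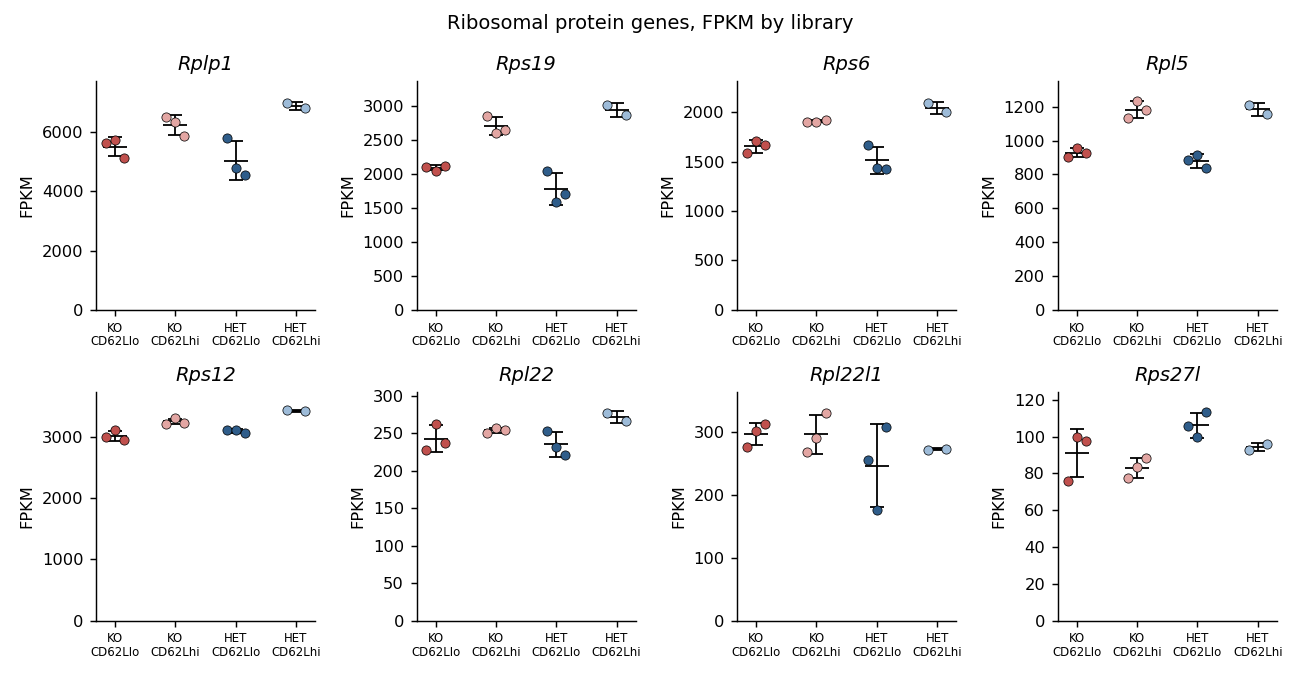
FPKM (vertical axes, from 0) of 8 ribosomal protein genes in each library, by group. Points are libraries and bars are the mean ± SD (n = 3, or 2 for HET CD62Lhi). The CD62Llo points of Rplp1, Rps19, Rps6 and Rpl5 lie under the CD62Lhi points of their genotype, those of Rps12 do so by less, and Rpl22l1 overlaps in both genotypes.

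Other 60S genes with larger falls were Rpl12, a base of the stalk, and Rpl13. Rpl12 had FPKM of 4093, 4037 and 3797 in KO CD62Llo against 5253, 5008 and 4641 in KO CD62Lhi, and of 4013, 3099 and 3116 in HET CD62Llo against 5529 and 5226 in HET CD62Lhi. The fractions did not overlap, and Rpl12 changed by -0.32 in KO (adjusted p = 0.0618) and -0.67 in HET (adjusted p = 0.00210, limma, Benjamini-Hochberg). Rpl13 had the lowest value in KO, -0.39 (adjusted p = 0.0208, lost in 5 of 11 such cases, at up to 0.0690), and -0.64 in HET (adjusted p = 0.00183). Rpl13a, which outside the ribosome takes part in interferon-induced silencing of mRNAs, changed by -0.30 in KO (adjusted p = 0.0455, lost in 7 of 11, at up to 0.147) and -0.58 in HET (adjusted p = 0.00225).

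Smaller changes were seen in a further group of 60S genes. Rpl3, at the peptidyl transferase centre, changed by -0.22 in KO (adjusted p = 0.0498) and -0.31 in HET (0.0101), Rpl23 by -0.21 (0.0251) and -0.39 (0.00128), and Rpl38, which in mouse embryos is needed for normal body patterning, by -0.26 (0.0276) and -0.36 (0.00594, limma, Benjamini-Hochberg). Leaving out 1 library removed the KO calls of Rpl3 in 9 of 11 cases, and of Rpl23 and Rpl38 in 4 each, at adjusted p up to 0.149, 0.0969 and 0.0993. Rpl3 was not called in HET without HET CD62Lhi replicate 1 (0.0845), nor was Rpl38 (0.0575). Rpl24, Rpl10, Rpl41 and Rpl39 passed in HET only, with log2 changes of -0.32, -0.27, -0.32 and -0.22. Their KO values were -0.15, -0.12, -0.05 and -0.14. These HET calls were lost in 1, 4, 4 and 9 of the 11 cases in which 1 library was left out, at adjusted p up to 0.0539, 0.131, 0.108 and 0.178.

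Some members missed the threshold. In HET 11 of the 81 were not called, namely Rpl22, Rpl22l1, Rpl26, Rpl29, Rpl30, Rpl39l, Rpl7l1, Rps12, Rps15a, Rps27 and Rps27l. For 5 of them, Rpl22, Rpl30, Rps12, Rps15a and Rps27, every HET CD62Llo library still lay under both HET CD62Lhi libraries. Rps12 had FPKM of 3000.1, 3115 and 2958 in KO CD62Llo against 3220.4, 3309.8 and 3234 in KO CD62Lhi, and of 3117, 3122 and 3058 in HET CD62Llo against 3435 and 3418 in HET CD62Lhi. The fractions were apart in both genotypes but close, with log2 changes of -0.11 in KO (SE 0.05, adjusted p = 0.168) and -0.15 in HET (SE 0.05, adjusted p = 0.0677, limma, Benjamini-Hochberg). Rps12 stood at 0.01 in HET after rescaling to equal totals and was called higher, at 0.22, after quantile normalization. Rps15a was the 1 gene called in KO (-0.24, adjusted p = 0.0304, and up to 0.113 with 1 library left out) and not in HET (-0.13, adjusted p = 0.184, and 0.02 after rescaling to equal totals), which leaves 44 genes called lower in both genotypes, 97.8% of the KO calls and 62.9% of the HET calls.

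Several of the members that were not called are paralogs of another ribosomal protein gene. Rps27l, a p53-induced paralog of Rps27, had FPKM of 76.0, 99.99 and 97.5 in KO CD62Llo against 77.3, 83.4 and 88.3 in KO CD62Lhi, and of 106, 99.8 and 113 in HET CD62Llo against 92.8 and 96.0 in HET CD62Lhi. The fractions overlapped in KO, and in HET the CD62Llo values were the higher ones, with log2 changes of 0.13 in KO (adjusted p = 0.458) and 0.17 in HET (SE 0.11, adjusted p = 0.307, limma, Benjamini-Hochberg). Rpl7l1, a paralog of Rpl7 that acts in ribosome assembly, lay between 33.8 and 39.3 in all 11 libraries, with log2 changes of -0.01 in KO (0.06 after rescaling to equal totals) and 0.04 in HET (-0.02 after quantile normalization and -0.07 after median centring). Rpl7l1 and Rps27l were both called higher in HET CD62Llo after rescaling to equal totals.

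Rpl22, which in mouse is needed for the development of alpha-beta T cells, and its paralog Rpl22l1 passed in no comparison of the FPKM as deposited. Rpl22 had FPKM of 227, 262 and 238 in KO CD62Llo against 250.2, 257 and 255 in KO CD62Lhi, and of 254, 231 and 221 in HET CD62Llo against 278 and 267 in HET CD62Lhi. It overlapped in KO and was apart in HET, with log2 changes of -0.07 (adjusted p = 0.535, and 0.0041 after rescaling to equal totals) and -0.21 (adjusted p = 0.0621, limma, Benjamini-Hochberg). Rpl22l1, whose window holds the tract as defined here, had FPKM of 277, 301 and 312 in KO CD62Llo against 269, 290.0 and 329 in KO CD62Lhi. In HET it had 255, 176 and 307 in CD62Llo against 272 and 273 in CD62Lhi. It overlapped in both genotypes, mainly through the spread of HET CD62Llo, and its log2 changes were 0.01 in KO and -0.18 in HET (adjusted p = 0.513). Rpl22l1 turned to -0.07 in KO after median centring and to 0.04 in HET without HET CD62Llo replicate 2. Rpl29 changed by -0.11 in KO and -0.21 in HET (SE 0.21), and by 0.04 in HET after quantile normalization or without HET CD62Lhi replicate 1. Rpl39l, a germ cell paralog of Rpl39, was under 1 FPKM in 9 of the 11 libraries and reached 2.55 in KO CD62Llo replicate 3 and 5.68 in HET CD62Llo replicate 3.

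Rps27 had a mean above 100 FPKM and was left out here, with log2 changes of 1.07 in KO and -3.77 in HET. The other 74 tested genes with a mean above 100 FPKM moved within a narrow band. In KO their log2 changes ran from -0.39 (Rpl13) to 0.01 (Rpl22l1), with an SD over genes of 0.0748, and 62 lay within 0.1 of their median. In HET they ran from -0.73 (Rps19) to -0.13 (Rps15a), with an SD of 0.117, and 51 lay within 0.1 of their median. The genes more than 0.2 from the HET median were Rpl12, Rpl13 and Rps19 on the low side and Rpl22, Rpl22l1, Rpl29, Rps12 and Rps15a on the high side. The KO and HET changes, which share no library, were related with rho 0.61 (Spearman) and r 0.70 (Pearson) across the 74 genes, as a description, since these genes share depth and scaling within each library. Of the 81 genes 80 had the larger absolute change in HET, a count given without its share over all tested genes. The median interaction of genotype and fraction was 0.18 as deposited and 0.006 after quantile normalization. No ribosomal protein gene passed the test of that interaction. Higher mean FPKM went with a lower HET change (Spearman rho -0.44 over the 74 genes) and less so with the KO change (-0.16).

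**Figure D3:**
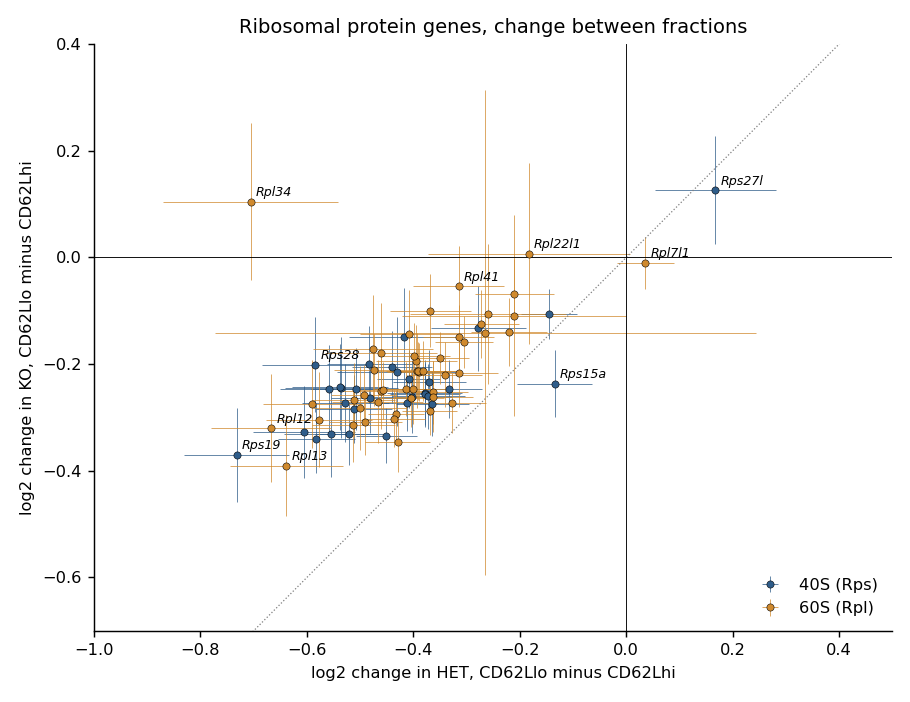
Log2 change between CD62Llo and CD62Lhi in KO (vertical axis) against HET (horizontal axis) for the ribosomal protein genes, with bars of 1 SE and a dotted line of equal change. Rps27 and Rpl39l are left out. Most genes lie above the dotted line, with a smaller change in KO. Rps15a, Rps27l and Rpl7l1 lie under it, and of these only Rps15a had the larger absolute change in KO.

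Genes with and without the TOP tract had similar changes. The 25 tested genes with the tract had a median log2 change of -0.24 in KO (13 fell) and -0.43 in HET (22 fell). The 36 tested genes with a sequence and no tract had -0.21 in KO (19 fell) and -0.39 in HET (30 fell). In HET, Rps19 and Rpl5, whose windows hold no tract, changed by -0.73 and -0.43, and Rpl12 and Rps24, whose windows hold one, by -0.67 and -0.45.

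Among the members of low FPKM, 4 share their locus with another entry that held most of the signal. Rps27, a zinc finger protein of the 40S subunit, had FPKM of 392, 12.1 and 325 in KO CD62Llo against 149, 10.2 and 107 in KO CD62Lhi, and of 11.6, 8.31 and 77.4 in HET CD62Llo against 305 and 268 in HET CD62Lhi. These values spread widely within a group, and the log2 changes of 1.07 in KO and -3.77 in HET (SE 1.60) did not pass. The overlapping entry Gm9846 had between 8217 and 11948 FPKM in all 11 libraries and fell by 0.25 in KO (adjusted p = 0.0472) and by 0.39 in HET (adjusted p = 0.00668, limma, Benjamini-Hochberg). In the authors' deposited table of group values, Rps27 itself stood at 11417 in KO CD62Llo against 13969 in KO CD62Lhi, and at 10606.5 in HET CD62Llo against 14851 in HET CD62Lhi.

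The same held for Rpl26, Rpl30 and Rpl34. Rpl26, which in human cells binds p53 mRNA, had FPKM of 14.04 to 21.6 in KO CD62Llo and 15.5 to 23.3 in KO CD62Lhi, and of 6.81 to 30.2 in HET CD62Llo and 19.1 and 25.1 in HET CD62Lhi. Its partner entry Gm15772 had 2352.5 to 3407 and fell by 0.25 in KO (adjusted p = 0.0159) and by 0.43 in HET (0.00103). The partner of Rpl30, Gm12191, fell by 0.25 (0.00871) and by 0.33 (0.00234), and the partner of Rpl34, Rpl34-ps1, fell by 0.28 (0.00676) and by 0.34 (0.00246, limma, Benjamini-Hochberg). Rpl34 was called lower in HET at 14.998 to 19.6 FPKM against 25.5 and 30.3, a call lost without HET CD62Lhi replicate 2 (adjusted p = 0.0925), and Rpl30 was not called in either genotype. In the authors' deposited table, Rpl30 and Rpl34 are joined with these partners in entries of 3376 and 3134 in KO CD62Llo against 4228 and 4003 in KO CD62Lhi, and of 3161 and 3038 in HET CD62Llo against 4163 and 4103 in HET CD62Lhi. Without these 4 members, an alternative chosen after seeing the data, 45 of 77 fell in KO and 69 of 77 in HET.

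**Figure D4:**
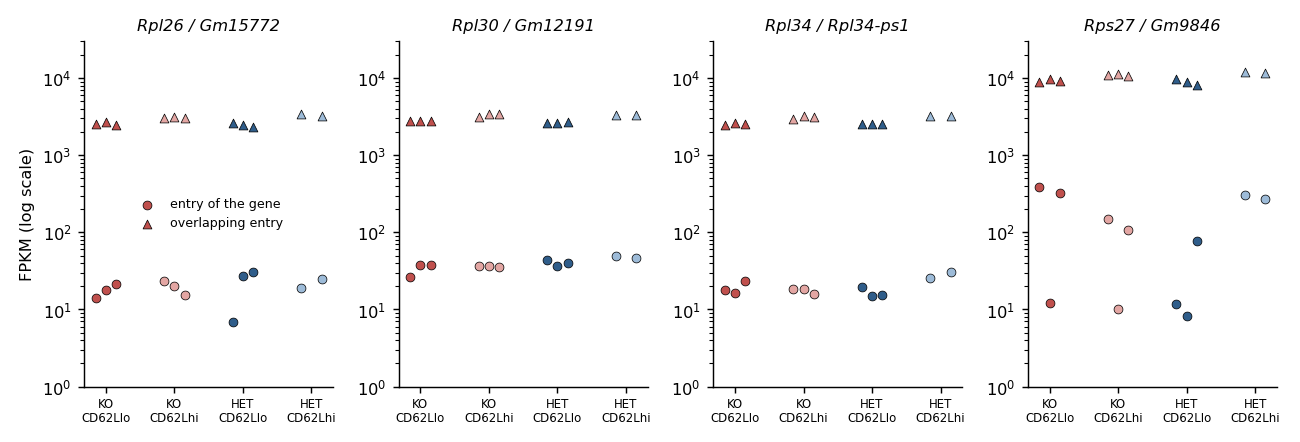
FPKM by library, on a log axis, of 4 ribosomal protein genes and of the entry that overlaps each. Points are libraries, by group. The overlapping entries lie between 2352.5 and 11948 FPKM in every library, while Rpl26, Rpl30 and Rpl34 lie under 50 and Rps27 is spread from 8.31 to 392.

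How much of the difference was seen depended on the scaling between libraries. Quantile normalization gives every library the same set of values, so genes that keep their ranks come out with equal values by construction. The tested ribosomal protein genes had a median rank of 55 to 60 in each of the 11 libraries, while the FPKM at rank 10 ranged from 3754 to 5529. After quantile normalization 3 of the 81 were lower in KO CD62Llo and 0 higher (7.06% and 8.83% of all tested genes), with a median log2 change of -0.05. In HET 7 were lower and 1 higher (14.4% and 12.9% of all tested genes), with a median of -0.04. The genes called lower were Rpl21, Rpl31 and Rps15a in KO and Rpl15, Rpl21, Rpl22, Rpl31, Rpl34, Rps19 and Rps3 in HET, and the gene called higher was Rps12, all of them named after their values were seen. Of these, 2 in KO and 6 in HET were also lower in the FPKM as deposited. Rps19 stood at -0.13 in KO and -0.33 in HET on this scale, Rplp1 at 0.04 and -0.18, Rps6 at 0.0044 and -0.06, and Rps24 at -0.12 and -0.02.

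The members' median lay under that of all tested genes by 0.29 in KO and 0.48 in HET as deposited, and by 0.03 in KO and 0.01 in HET after quantile normalization. Scaling each library by 1 factor shifts all its genes alike on the log scale, apart from the pseudocount, so this gap is fixed by construction under such scalings, while counts of called genes can move. After rescaling each library to a sum of 1000000, 34 genes were lower in KO (2.98% of all tested genes), and 65 lower and 2 higher in HET (5.6% and 42.4%). With the sum taken over all other genes, 45 were lower in KO and 68 in HET (3.8% and 7.44% of all tested genes). After median centring 63 were lower in KO and 73 in HET (8.63% and 16.3%). In HET the median of all tested genes shifted by 0.15 on rescaling to equal sums and by -0.10 on median centring and on quantile normalization. The split of all called genes in HET moved with it, at 2148 higher and 1015 lower as deposited, 4847 and 640 rescaled, 1522 and 1862 centred, and 1472 and 1646 quantile-normalized. In KO the split was 1365 and 487 as deposited, 2325 and 341 rescaled, 1007 and 987 centred, and 1009 and 807 quantile-normalized.

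**Figure D5:**
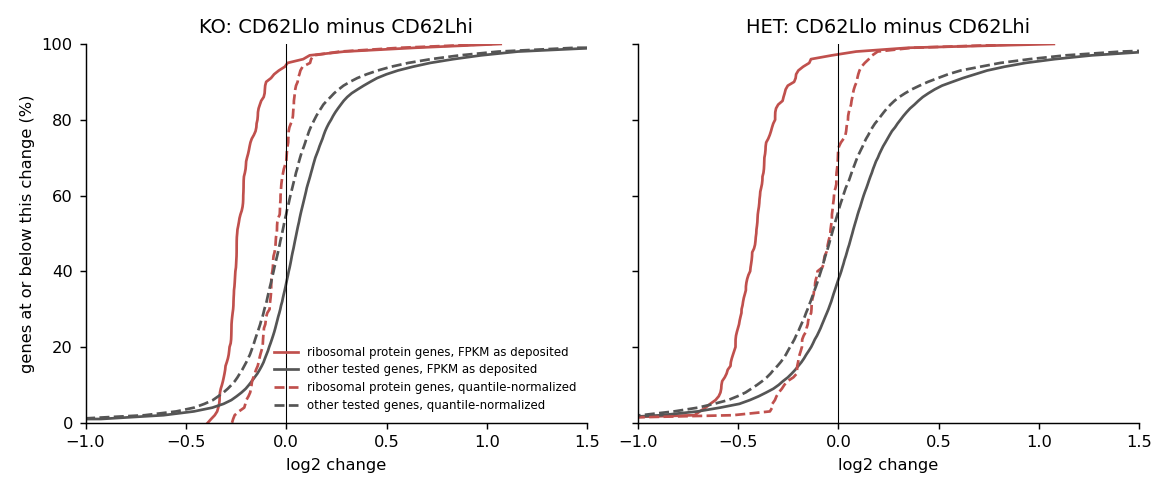
Percent of genes (vertical axis) at or below each log2 change between CD62Llo and CD62Lhi (horizontal axis), in KO and HET. Solid lines are FPKM as deposited and dashed lines quantile-normalized values, for the 81 tested ribosomal protein genes and for the other tested genes. The solid curve of the ribosomal protein genes is steep and stands left of 0, at a median of -0.24 in KO and -0.41 in HET, and its dashed curve crosses the others near 0.

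Other abundant genes were also lower in CD62Llo. Among the 100 genes of highest mean FPKM, 65 were ribosomal protein genes, of which 40 fell in KO (median -0.25) and 63 in HET (median -0.42). Of the other 35, 8 fell in KO (median -0.20) and 13 in HET (median -0.26), and 0 rose in either. Genes of the ribosome whose symbols do not follow the rule fell too. Gnb2l1, the 40S scaffold also named Rack1, fell by 0.33 in KO and by 0.45 in HET. Fau, a fusion with a 40S protein, fell by 0.52 and Rpl36al by 0.19, both in HET. After quantile normalization 1 of the 4 genes of this list was called lower in KO and 0 in HET.

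For genes that work beside the ribosomal proteins, the medians of the FPKM as deposited lay nearer to 0. Their counts stand beside 4.26% lower and 11.9% higher of all tested genes in KO, and 8.88% and 18.8% in HET. Of 22 other translation genes with TOP mRNAs 3 fell and 0 rose in KO CD62Llo (median -0.08), and 8 fell and 1 rose in HET CD62Llo (median -0.07). After quantile normalization 1 fell in KO, and 5 fell and 1 rose in HET. Tpt1, the translationally controlled tumor protein, fell by 0.39 in KO and by 0.40 in HET as deposited, and stood at -0.11 and -0.0030, not called, after quantile normalization. Eef1b2, a nucleotide exchange factor of elongation, fell by 0.28 and by 0.38, and was called on both scales. Of 44 ribosome biogenesis genes 0 were called in KO and 4 fell in HET (median -0.04), with Rrp9, a protein of small nucleolar RNPs, at -0.36 and Bysl, a 40S assembly factor, at -0.35, and after quantile normalization 8 fell in HET (median -0.12). Of 15 genes of the RNA polymerase I machinery 0 were called in KO, and Taf1b alone rose in HET (0.32), a call lost after quantile normalization, where 1 fell in KO and 3 in HET. Of 24 tested mTORC1, S6 kinase and Myc regulators 2 fell and 3 rose in KO, and 3 fell and 2 rose in HET (3 and 3 in KO, and 5 and 2 in HET, after quantile normalization). Those in HET included Tbc1d7, a subunit of the TSC complex (0.79), and Mxd1, a Myc antagonist (-0.78). Mxd4, another Myc antagonist of the same family, was called in the other direction, at 0.56 in KO and 0.53 in HET. Named after their values were seen, Myc, which drives ribosome production in growing cells, fell by 0.57 in HET CD62Llo and Larp1 by 0.31, and Myc was the 1 gene of this list called between genotypes, higher by 0.35 in KO CD62Llo than in HET CD62Llo.

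Mitochondrial ribosomal protein genes, the closest counterpart of these genes in another compartment, had medians near 0. Of 76 tested, 1 fell and 1 rose in KO CD62Llo (median 0.04) and 1 fell and 3 rose in HET CD62Llo (median 0.03). The member that fell in HET was Mrpl30 (-0.36), and the largest rise was that of Mrps6 (0.91). After quantile normalization the medians were -0.01 in KO and -0.05 in HET, with 1 lower and 1 higher in KO, and 5 lower and 2 higher in HET. Of 76 tested nuclear genes of oxidative phosphorylation 0 fell and 3 rose in KO (median 0.05) and 1 fell and 2 rose in HET (median 0.01), Uqcrb at 0.37 and Ndufa12 at 0.25 among them, and after quantile normalization 1 fell and 3 rose in KO, and 2 fell and 3 rose in HET.

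Between genotypes no ribosomal protein gene passed. In CD62Llo Tregs 0 of 81 were called between KO and HET (limma, Benjamini-Hochberg), where 1.36% of all tested genes were higher and 3.25% lower in KO. At an unadjusted p under 0.05 there were 13 higher and 1 lower (5.85% and 13% of all tested genes). The median log2 change was 0.11 (all tested genes -0.03), positive for 74 of the 81, and -0.0089 after quantile normalization. Rps19 was apart, with KO CD62Llo at 2050 to 2118 and HET CD62Llo at 1585 to 2044 (log2 change 0.24, adjusted p = 0.177). Groups did not overlap for 13 genes with KO higher (6.55% of all tested genes) and for Rpl7l1 alone with KO lower (13.7%), at -0.12 (adjusted p = 0.232). After median centring 3 were called higher (1.98% of all tested genes). Without HET CD62Llo replicate 1, the HET CD62Llo library with the highest share of ribosomal protein FPKM, 15 of the 81 were called higher in KO, where 1.51% of all tested genes were.

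In CD62Llo the largest values were those of Rps27 (2.50) and Rpl22l1 (0.30), with Rps28 at 0.23, and at the other end Rpl39l (-0.56), Rpl30 (-0.24), Rps27l (-0.23) and Rps15a (-0.10). In CD62Lhi Tregs 0 of 81 were called (limma, Benjamini-Hochberg), as were 0% of all tested genes, and 2, Rpl34 and Rpl30, were lower at an unadjusted p under 0.05 (2.05% of all tested genes). The median log2 change was -0.10 (all tested genes -0.02), negative for 77 of the 81, and -0.01 after quantile normalization. For 53 genes every KO CD62Lhi library lay under both HET CD62Lhi libraries, where this was so for 14.4% of all tested genes, and for 0 genes was it the other way round (7.83%). The lowest values were those of Rps27 (-2.34), Rpl34 (-0.63), Rpl30 (-0.39), Rpl36 and Rps27l (both -0.19), and the highest those of Rpl22l1 (0.11), Rpl29, Rps3a1, Rpl14 and Rps15a.

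The test of whether the difference between fractions itself differed between genotypes called 0 of the 81 (limma, Benjamini-Hochberg), where 0.00875% of all tested genes were called, although 23 had an unadjusted p under 0.05, all of them positive (3.08% of all tested genes). The median interaction was 0.18 on the log2 scale (all tested genes -0.01), and 0.006 after quantile normalization. The largest among genes with their own signal were Rps28 (0.38, adjusted p = 0.519), Rps19 (0.36, adjusted p = 0.549) and Rpl12 (0.35), beyond Rps27 (4.84) and Rpl34 (0.81, adjusted p = 0.341), and the lowest were Rpl39l (-0.54) and Rps15a (-0.10). The comparisons between genotypes share their libraries with those between fractions.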

How the data were processed

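Tregs were sorted and poly(A) RNA libraries made with the TruSeq 2 kit were sequenced on a HiSeq 2500 as 50 bp single-end reads, per the labels' protocols and the design text of the series. Per the submitters' processing notes, CASAVA 1.8.2, FastQC, TopHat and Cufflinks 2.1.1 were used with the mm10 build, while settings, strand use and the version of TopHat are not known from the sources at hand. The FPKM per gene were deposited by the authors for each of 12 libraries, and again as 1 value per group in a merged table. Each library file held 23846 entries, and entries of 1 symbol were summed. Intervals deposited with the FPKM were not used, because the FPKM of 68 members exceeded the upper end of its interval in all 11 libraries. Depth is unknown, so no counting interval is given. Copies of ribosomal protein genes and small RNA genes within them (22 members overlap such an entry) make single values uncertain.

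HET CD62Lhi replicate 3 had 589 entries above 0 and was left out. Group means of log2(FPKM + 1) in the other 11 libraries were fitted by limma 3.58.1 (R 4.3.3) with a trended empirical Bayes step, over 11431 genes that reached 1 FPKM in 2 or more libraries. P-values were adjusted by Benjamini-Hochberg, with a threshold of 0.05. This scale understates changes of genes of low FPKM. The fit was tested on simulated data. Alternatives were other scalings, a pseudocount of 0.1, no filter, only the groups compared, the replicate number as a block, the largest entry of a symbol, the merged table and leaving out each library. Tables were handled with Python 3.11.15, pandas 2.3.3 and numpy 2.4.6. Promoter windows came from RefSeq GRCm38.p6, the assembly of the mm10 build.

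The members and lists were chosen with earlier results of these data known. Always named were 27 members fixed by role, members in a called minority direction or under the filter, the 5 lowest and 5 highest per comparison, and the 2 largest called genes of each outside list. Some genes that this rule names are not reported here.

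Replicate numbers recur across groups, and no label ties a number to a litter or day. Residuals about the group means correlated at r of 0.165, 0.153 and 0.148 between same-numbered KO and HET CD62Llo libraries. Differently numbered libraries of these groups had r of -0.237 to 0.084, so the numbers pair these by correlation alone. Between the KO fractions r was 0.131, 0.068 and 0.178 for same-numbered libraries, and -0.178 to 0.086 for differently numbered ones. Between the HET fractions r was 0.135 and 0.073 for same-numbered libraries, and -0.135 to 0.060 for differently numbered ones. The residuals of the HET CD62Lhi libraries mirror each other, so each r with that group has a counterpart of opposite sign. Same-numbered KO and HET CD62Lhi libraries had r of 0.075 and -0.032, so the pairing was not seen there.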

Additional observations from a re-analysis of the deposited data

How the results depend on the processing

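The median change of ribosomal protein genes between fractions was negative under every alternative run, and its size depended on the scaling. After quantile normalization it lay near the median of all tested genes, -0.02 in KO and -0.03 in HET. Its sign on that scale is therefore not particular to these genes. Median log2 changes were -0.047 in KO and -0.040 in HET after quantile normalization, -0.32 and -0.51 after median centring, -0.17 and -0.25 after rescaling to 1000000, and -0.318 and -0.49 from the merged table, whose shares were 29.1% in KO CD62Llo, 32.8% in KO CD62Lhi, 27.6% in HET CD62Llo and 33.4% in HET CD62Lhi. Called genes numbered 3 in KO and 8 in HET after quantile normalization, and 11 in KO with no filter, where more genes are tested. The number of all tested genes called with no filter is not given here. With 1 library left out the called members ranged from 15 to 61 in KO and 57 to 72 in HET, the 61 being without HET CD62Llo replicate 1. Their medians were -0.27 to -0.22 in KO and -0.45 to -0.39 in HET. Calls over all tested genes, in either direction, then ranged from 1187 to 1974 in KO and 1916 to 3337 in HET. Between genotypes in CD62Llo, 3 were called after median centring and 0 to 15 with 1 library left out (medians 0.07 to 0.16), and the median was -0.0089, reversed, after quantile normalization. In CD62Lhi the median was -0.015 after quantile normalization, and -0.12 to -0.07 with 1 library left out. The interaction median was 0.006 after quantile normalization, 0.099 after rescaling and 0.16 to 0.22 with 1 library left out.

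With the replicate number as a block, 48 of these genes were called in KO and 71 in HET and 0 in the other comparisons. The number of all tested genes called with the block is not given here, so these counts have no share beside them. Of the named members the block removed the KO call of Rpl3 and added those of Rps29 in KO and Rps27 in HET, and changed no other call.

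Over all 81 genes, 25 were positive in KO and 22 in HET after quantile normalization, against 5 and 3 as deposited. Of the genes named by rule, these reversed. In KO after quantile normalization Rpl10 was 0.047, Rpl11 0.0014, Rpl39 0.072, Rpl41 0.14, Rplp1 0.038, Rps28 0.057, Rps6 0.0044 and Rpsa 0.0595, and after rescaling Rpl22 was 0.0041, Rpl41 0.0196 and Rpl7l1 0.062. Rpl22l1 was -0.072 after median centring. With 1 library left out in KO, Rpl22l1 ranged from -0.060 to 0.086, Rpl26 from -0.296 to 0.011, Rpl34 from -0.047 to 0.21, Rpl7l1 from -0.036 to 0.017 and Rps27 from -0.0985 to 2.66. In HET after quantile normalization Rpl10 was 0.081, Rpl29 0.042, Rpl38 0.11, Rpl39 0.18, Rpl41 0.091, Rpl7l1 -0.0235, Rps12 0.22, Rps29 0.048 and Rpsa 0.071. Rpl7l1 was -0.066 after median centring, and Rps12 was 0.011 and Rps15a 0.021 after rescaling. With 1 library left out in HET, Rpl22l1 ranged from -0.36 to 0.038, Rpl26 from -0.62 to 0.38 and Rpl29 from -0.47 to 0.044. The cause was not tested, beyond quantile normalization giving genes of equal rank equal values.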
